A study of Mus musculus with 14 samples.

Results

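Gene expression in cells that carry the acetylation-deficient triple mutant KTR of p65 was compared with that in cells that carry wild type p65, both after 3 h of TNFα. The 3 KTR arrays and the 3 wild type arrays were chosen by their titles and make up 6 of the 14 arrays of the series. All cells were *p65*(-/-) mouse embryonic fibroblasts (MEFs), starved overnight and treated with 30 ng/ml mouse TNFα. They had been infected with a lentivirus for p65 with a myc tag. In KTR (K310/314/315R), lysines 310, 314 and 315 of p65 are replaced by arginine, which keeps the positive charge but cannot be acetylated. The other groups were K314/315R at 3 h (2 arrays), in which lysine 310 is intact, the empty vector pTV at 3 h (3 arrays), which has no p65, and wild type p65 without TNFα (0 h, 3 arrays). Per the methods of the study, each line was a pool of infected cells under Blasticidin and not a clone. Each p65 construct is thus represented by 1 pool, so that the mutation and other differences between the pools cannot be told apart.

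p65, also called RelA, is the subunit of NF-κB that holds a strong transactivation domain. In resting cells it is kept in the cytoplasm by inhibitors of the IκB family, and TNFα leads to the breakdown of these inhibitors and to the entry of NF-κB into the nucleus, where it binds κB sites and raises genes for chemokines, cytokines, adhesion molecules, acute phase proteins and its own inhibitors. The acetylases p300 and CBP can bind p65 and acetylate lysines in it. The comparison addresses which genes depend on the 3 lysines late in the response, and all genes were included, not only those that need p65.

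The 14 arrays carried 41174 probes other than controls. Levels are on the log2 scale with the 75th percentile of each array set to 0, so that negative values are dimmer than that percentile. Of the probes, 21468 (14441 gene names) exceeded background clearly on all arrays of wild type or all of KTR and were tested, 18979 of them with values above background on all 6 arrays. Slides 1 to 3 each held 1 array of KTR, wild type at 3 h, wild type at 0 h and pTV, in the same position for each line, so the position on the slide and the cell line cannot be told apart. Between 49.92% and 53.31% of the spots of a KTR array were well above background, against 54.32% to 57.35% for wild type, and the KTR arrays had 75 to 326 outlier spots against 8 to 26. The labelled cell type was seen in the data. Of 13 fibroblast markers, 12 were above background on all 6 arrays and *Lum* on none, and their summed level relative to the 75th percentile was 1160 to 1326 in wild type and 1126 to 1354 in KTR. None of the 5 macrophage, 4 endothelial and 4 skeletal muscle markers was above background on all 6 arrays. The summed level of the skeletal muscle list was 0.08 to 0.15 in wild type and 0.10 to 0.79 in KTR. Of the other lists, 1 of 5 epithelial, 2 of 4 adipocyte and 3 of 4 neural markers were, and the summed level of the neural list was 8.52 to 9.32 in wild type and 9.98 to 11.35 in KTR. The part of these cells in the results was not tested.

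The introduced p65 itself could not be checked on these arrays. The brighter of the probes for mouse *Rela* had levels of 1.52, 1.52 and 1.54 in wild type, 1.39, 1.54 and 0.79 in KTR and 1.00, 1.19 and 1.34 in pTV. The KTR and wild type arrays overlapped, and the log2 fold change of KTR over wild type was −0.29 ± 0.17 (SE, adjusted p = 0.362). The dimmer probe had −0.18 ± 0.08 (adjusted p = 0.254). Since pTV cells also gave signal at both probes, *Rela* does not check the labels.

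KTR cells had lower levels of a group of interferon-stimulated genes, of genes of antigen presentation and of single genes such as the inhibitor *Nfkbie* and the peptide gene *Nts*. At over 1.8-fold and an adjusted p under 0.05, 70 probes (67 gene names) were lower in KTR and 31 (29 names) were higher, 0.326% and 0.144% of all tested probes. All 101 were separated without overlap of the KTR and the wild type arrays with a value (*NAP070880-1* had only 2 KTR values). So were 5.17% of all tested probes in the lower and 9.55% in the higher direction. The median log2 fold change over all tested probes was 0.06 (quartiles −0.06 and 0.15). The called lower probes had a median of −1.26 and the called higher ones of 0.97. On each slide alone, the medians of the lower probes were −1.22, −1.42 and −1.22. In bulk RNA, fewer cells that express a gene and less RNA per cell cannot be told apart. A probe had to be measured in 1 group only, and 36 of the lower and 2 of the higher calls passed this filter only through the group in which they were high.

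The counts depend on the arrays that estimate the spread. The fit held the 12 arrays of slides 1 to 3 with the slide as a block and had 6 residual degrees of freedom. Without the block, limma called 32 lower and 8 higher. With the 6 KTR and wild type arrays alone, which leave 2 residual degrees of freedom, it called 1 lower and 0 higher (163 lower and 53 higher at an unadjusted p under 0.05 in the fit reported). Of the 15 lower and 10 higher genes named for their fold, 5 and 4 kept their call without the block (*Asb4*, *Nts*, *Efemp1*, *Lama2*, *ENSMUST00000094405*, *Gm784*, *Mmp28*, *Lrrc15* and *4930517K11Rik*). Without wild type replicate 1, 2 or 3 there were 44, 35 or 43 lower and 12, 13 or 13 higher calls, without KTR replicate 2 there were 41 lower, and without KTR replicate 1 there were 52 higher. The balance of lower and higher calls turned with all probes tested, also those near background (159 lower, 1153 higher), and without a fold limit (229 lower, 237 higher). Normexp background correction on all spots ended every call (0 lower, 0 higher). Just inside the fold limit lay *LOC630499* (log2 fold change −0.85) and *Cxxc5* (0.85), and just outside it, past the adjusted p, *H2-T10* and *Amica1* (−0.84 and 0.84).

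**Figure D1:**
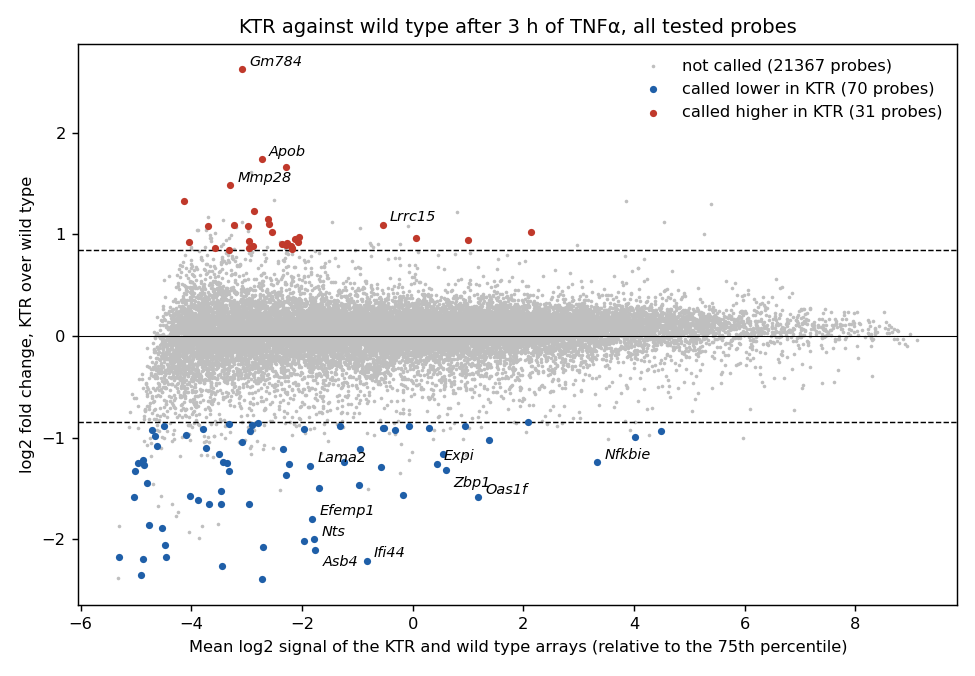
Log2 fold change of KTR over wild type at 3 h (vertical axis) against the mean log2 signal of the 6 arrays relative to the 75th percentile (horizontal axis), 1 point per tested probe; dashed lines mark 1.8-fold. The 70 lower calls reach the bright range, as for *Nfkbie*, while most of the 31 higher calls lie at levels below 0.

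Interferon-stimulated genes encode sensors and effectors of the antiviral response and are switched on mainly by interferon. Of 52 tested genes of this list, 51 had their lower mean in KTR, 8 were called lower and 0 higher, and 32 had no overlap in the lower direction. Of all tested probes, 0.326% were called lower and 5.17% had no overlap in this direction. The median log2 fold change of the list was −0.63, beside 0.06 for all tested genes, of which 35% had a lower mean. Within slides 1, 2 and 3 the median was −0.86, −0.82 and −0.30. The direction was thus the same on each slide, but the calls were not robust to single libraries, with 0 called without the replicate block or without wild type replicate 1, wild type replicate 2 or KTR replicate 2, 3 without wild type replicate 3 and 4 without KTR replicate 1 or 3. The exception was *Ifitm1* (log2 fold change 0.15, adjusted p = 0.655), named after its value was seen.

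To show the regulatory sequence of these genes, the 250 bases before the start site are given for the 3 lowest called genes of the list, and for *Nfkbie*, which was added after its values were seen. They are from RefSeq (GRCm38.p6), on the strand of the gene: *Ifi44* at chr3:151749911-151750160 (minus strand), *Oas1f* at chr5:120847117-120847366 (plus strand), *Oas1a* at chr5:120907526-120907775 (minus strand) and *Nfkbie* at chr17:45555450-45555699 (plus strand). Capitals mark matches, in the first 3 to the core of the interferon-stimulated response element (ISRE), GAAANNGAAA or TTTCNNTTTC on the other strand, and in *Nfkbie* to the κB consensus.
Ifi44: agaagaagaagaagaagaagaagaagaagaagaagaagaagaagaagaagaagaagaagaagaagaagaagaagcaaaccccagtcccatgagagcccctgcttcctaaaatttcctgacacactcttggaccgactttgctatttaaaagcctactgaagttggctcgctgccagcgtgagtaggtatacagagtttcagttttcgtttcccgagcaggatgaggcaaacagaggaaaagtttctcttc
Oas1f: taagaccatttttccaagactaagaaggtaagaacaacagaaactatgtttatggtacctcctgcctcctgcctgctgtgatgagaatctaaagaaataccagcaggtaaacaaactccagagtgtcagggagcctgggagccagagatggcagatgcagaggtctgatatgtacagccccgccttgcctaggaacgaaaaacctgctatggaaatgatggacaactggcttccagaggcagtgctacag
Oas1a: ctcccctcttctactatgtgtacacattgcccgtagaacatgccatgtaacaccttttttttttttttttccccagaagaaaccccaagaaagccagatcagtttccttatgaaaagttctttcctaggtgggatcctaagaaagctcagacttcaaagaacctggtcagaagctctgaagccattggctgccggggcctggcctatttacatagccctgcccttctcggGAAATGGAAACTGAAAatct
Nfkbie: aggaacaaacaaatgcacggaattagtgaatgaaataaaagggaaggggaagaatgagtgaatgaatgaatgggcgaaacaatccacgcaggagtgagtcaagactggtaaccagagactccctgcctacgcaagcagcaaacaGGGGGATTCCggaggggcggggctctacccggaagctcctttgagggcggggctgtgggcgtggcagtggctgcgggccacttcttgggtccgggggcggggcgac

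In *Oas1a*, 2 overlapping ISRE cores begin at −20 and −14 from the start site, and in *Nfkbie* 1 κB match begins at −106. *Ifi44* and *Oas1f* hold no run of exactly these letters in this window. Among the 9281 tested genes with a promoter in the table, 3.18% had an ISRE core in the same window and 5.51% a κB match on either strand (3.46% and 4.46% of all 27025 promoters). An ISRE core was found in 18 of 38 tested genes of the interferon list that the table holds (47.4%), in 4 of 42 called lower genes (9.52%) and in 0 of 17 called higher genes. A κB match was found in 6 of the 42 (14.3%) and 3 of the 17 (17.6%). These matches describe letters only.

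*Ifi44*, named for its induction by interferon, had levels of 0.38, 1.12 and −0.67 in wild type and −1.39, −1.64 and −2.78 in KTR. The pTV arrays, at −5.52, −6.02 and −5.36, were not above background. KTR thus lay, without overlap, under wild type and over pTV, and KTR had 0.216 times the wild type level (log2 fold change −2.21 ± 0.38 SE, adjusted p = 0.0287). *Oas1f* and *Oas1a* belong to the 2′-5′-oligoadenylate synthetase family, whose active members make the activator of RNase L when they bind double-stranded RNA. *Oas1f* had 2.24, 2.44 and 1.22 in wild type and 0.42, 0.67 and 0.06 in KTR (log2 fold change −1.59 ± 0.21, adjusted p = 0.0119). *Oas1a* had 1.07, 1.00 and −0.28 against −0.71, −0.89 and −1.29 (−1.56 ± 0.27, adjusted p = 0.0292). For both, the third wild type array was the dimmest of its group, and no pTV array was above background.

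*Phf11* and its neighbour in the same gene family *D14Ertd668e* (current symbols *Phf11a* and *Phf11d*), which encode PHD finger proteins, had log2 fold changes of −1.47 and −1.49 (adjusted p = 0.0287 and 0.0279). The levels of *Phf11* were −0.11, 0.14 and −0.76 in wild type and −1.80, −1.55 and −1.78 in KTR. As paralogs, these genes may share part of their signal. *Zbp1*, a sensor of Z-form nucleic acids that can start necroptosis, had 1.79, 1.31 and 0.70 in wild type and 0.39, −0.22 and −0.34 in KTR (log2 fold change −1.32 ± 0.23, adjusted p = 0.0289). *D11Lgp2e* (*Dhx58*), the RIG-I-like receptor LGP2, fell from 0.22, 0.37 and −0.38 to −0.87, −1.62 and −1.18 (−1.29 ± 0.26, adjusted p = 0.0477). The groups did not overlap for either sensor. The remaining called genes of the list, *Ifi27* (−1.16, adjusted p = 0.0311) and *Bst2* (−0.94, adjusted p = 0.0453), the tetherin gene, were named to complete the count. The list counts 8 called genes, so *Phf11* and *D14Ertd668e* are not both among them.

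Of the transcription factors of the list, *Isgf3g* (*Irf9*) was at −0.51 on the scale of log2 fold changes (adjusted p = 0.102), and its groups did not overlap. *Irf1*, a direct target of NF-κB and the brightest regulator of the list, had levels of 5.71, 5.47 and 5.46 in wild type and 5.56, 5.36 and 5.68 in KTR. Its arrays overlapped (−0.02, adjusted p = 0.935).

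The interferon-inducible GTPases, which act against intracellular pathogens, had the lowest median of the 3 subgroups, −0.85 over 11 genes, and all 11 had a lower mean, but none of their brightest probes was called. *Mpa2l* (*Gbp6*), a guanylate-binding protein, had 0.49, −0.16 and −0.48 in wild type and −0.33, −2.02 and −2.33 in KTR. The first KTR array overlapped with the wild type arrays, and the log2 fold change of −1.51 ± 0.32 missed the limit (adjusted p = 0.0554). On slides 1, 2 and 3 the differences of *Mpa2l* were −0.82, −1.85 and −1.85. *Ifi47*, *Gbp4* and *Tgtp* had log2 fold changes of −0.85, −0.92 and −0.92 (adjusted p = 0.0863, 0.0883 and 0.0938), and *Gbp2*, the brightest, had −0.39 (adjusted p = 0.31). *Gvin1*, a very large GTPase named after its values were seen, was called through 1 of its probes (−1.24, adjusted p = 0.00391), while the others had −0.44 and −0.44 (adjusted p = 0.0943 and 0.125).

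For 51 of the 52 interferon-stimulated genes the KTR mean lay between the pTV and the wild type mean. For 35 it lay below the mean of wild type cells without TNFα. Among 21465 tested probes with all means, the same held for 3072 and 10043. The median of the list was 3.61 for wild type at 3 h over pTV and 0.31 for wild type at 3 h over 0 h. *Ifi44*, for instance, had 0.74, 0.91 and −0.24 at 0 h. These values share arrays with the comparison and are given side by side only. In K314/315R, 48 of the 52 and 10060 of the 21465 probes had a lower mean than wild type (median differences −0.27 and 0.02). That line was on a separate slide, so slide and line cannot be told apart there.

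**Figure D2:**
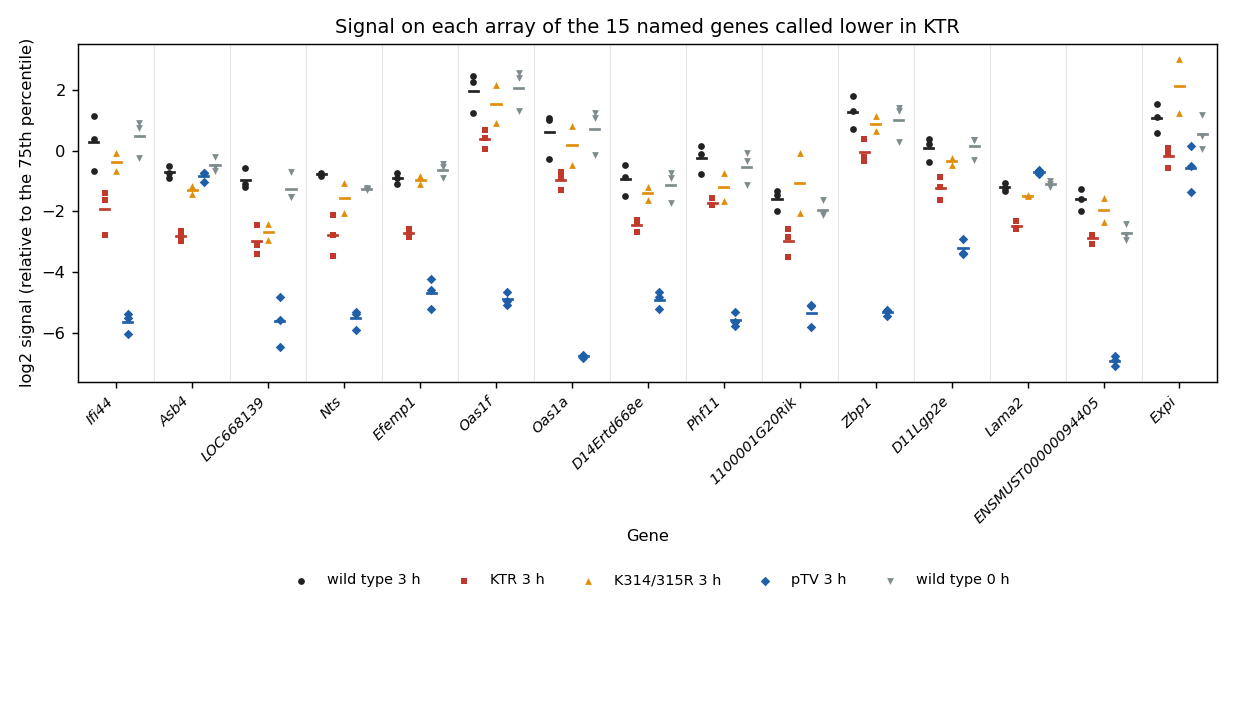
Log2 signal relative to the 75th percentile (vertical axis) of 15 genes called lower in KTR (horizontal axis), 1 point per array and a line at each group mean, for wild type at 3 h, KTR, K314/315R, pTV and wild type at 0 h. In every gene the 3 KTR arrays lie below the 3 wild type arrays at 3 h, and in *Asb4* and *Lama2* the pTV arrays do not share the low level of KTR.

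MHC class I molecules show peptides from the cytosol to T cells, and their genes respond to both NF-κB and interferon. All 12 tested genes of heavy chains and *B2m* had a lower mean in KTR, with a median log2 fold change of −0.57, and 7 passed an adjusted p under 0.05 at any fold, as did 1.07% of all tested probes in this direction. Of the 25 genes with processing included, 3 were called lower and 0 higher at the fold limit (1 lower without the replicate block). *H2-D4* had 2.04, 1.97 and 1.68 in wild type and 1.26, 0.55 and 0.80 in KTR (−1.02, adjusted p = 0.00412). *H2-Q1* had 3.59, 3.55 and 3.13 against 2.80, 2.63 and 2.42 (−0.81, adjusted p = 0.00238), below the fold limit. The brightest probes of *H2-K1* and *H2-D1* had −0.71 and −0.65 (adjusted p = 0.00718 and 0.0124). A dimmer probe of *H2-K1* was called lower (−0.905, adjusted p = 0.0067). With any probe counted, 4 genes of the list held a call. The groups did not overlap in these genes. Heavy chain genes are near-identical in places, so that their probes may read each other's transcripts. *B2m*, the shared light chain, differed little (−0.07, adjusted p = 0.674).

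In the processing branch, *Tap1*, a subunit of the peptide transporter, fell from −2.51, −2.32 and −2.86 in wild type to −3.62, −3.34 and −3.86 in KTR (log2 fold change −1.05, adjusted p = 0.00584). *Tap1* was above background on 2 of the 3 KTR arrays, so it passed the filter only through wild type. *Cd74*, the invariant chain of MHC class II, which the list also holds, fell from 0.47, 0.32 and 0.32 to −0.61, −0.74 and −0.20 (−0.89, adjusted p = 0.038). *Psmb10*, an immunoproteasome subunit and the brightest gene here, had −0.15 (adjusted p = 0.314). The KTR mean lay between pTV and wild type for 21 of the 25 genes, beside 3072 of 21465 tested probes.

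Among the genes of NF-κB signalling, 1 of 30 tested was called, and the median log2 fold change was 0.01. This gene was *Nfkbie*, which encodes IκBε, an inhibitor that NF-κB itself induces. Its levels were 3.90, 4.02 and 3.95 in wild type and 3.13, 2.89 and 2.11 in KTR, beside 1.34, 1.69 and 1.89 in pTV and 2.42, 2.47 and 2.58 in wild type at 0 h. KTR had 0.422 times the wild type level (log2 fold change −1.24 ± 0.24 SE, adjusted p = 0.0397), and every KTR array lay between the wild type and the pTV arrays. Without the replicate block the adjusted p was 0.0615. The best known feedback inhibitor, *Nfkbia* (IκBα), had 6.97, 6.86 and 6.77 against 6.83, 6.63 and 6.51, with overlap (−0.21, adjusted p = 0.276). Of the subunit genes, *Relb* had −0.21 (adjusted p = 0.0822) and *Nfkb1*, which encodes p105 and p50, 0.03 (adjusted p = 0.798).

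Of 47 tested NF-κB targets outside these lists, 0 were called in either direction by limma at the limits above, their median was −0.01, and 25 had a lower mean. The median difference of wild type over pTV, which shares the wild type arrays, was 1.71. A few passed the adjusted p below the fold limit. The chemokine genes *Cxcl16* (1.13, 0.90 and 1.01 in wild type, 0.62, 0.35 and 0.40 in KTR) and *Cxcl11* had log2 fold changes of −0.56 and −0.66 (adjusted p = 0.00412 and 0.0189). *Ccl7*, a chemokine for monocytes, was higher in KTR (5.41, 5.21 and 5.57 against 5.02, 4.90 and 4.87, 0.47, adjusted p = 0.0364). *Ccl2*, the brightest chemokine gene, had 9.02, 8.62 and 8.61 in wild type and 8.98, 8.67 and 8.76 in KTR (0.05, adjusted p = 0.763).

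Further genes known from the NF-κB response had values on both sides of 0 and missed the limit. *Icam1* and *Vcam1*, adhesion molecules for leukocytes, had −0.61 and −0.13 (adjusted p = 0.13 and 0.473), and *Cd14* and *Csf2* (GM-CSF) had 0.50 and 0.47 (adjusted p = 0.118 and 0.077). *Sod2*, the mitochondrial superoxide dismutase, had −0.27 (adjusted p = 0.188) and *Irg1*, which makes itaconate, −0.71 (adjusted p = 0.117). *Cxcl10* (IP-10) had 4.03 and 3.66 on the wild type arrays and 3.89 and 3.82 on the KTR arrays with a value, 1 array in each group having an outlier spot (−0.01, adjusted p = 0.983). The collagenase gene *Mmp13* had −0.45, −0.78 and −0.92 against −0.55, −0.74 and −0.14 (0.24 ± 0.32 SE, adjusted p = 0.693), and *Mmp10* had −0.06 ± 0.15 (adjusted p = 0.844). Their 95% intervals ran from −0.48 to 0.95 and −0.41 to 0.29.

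Acute phase and complement genes lay between these groups. Of 16 tested, 14 had a lower mean in KTR and the median was −0.45, with 1 called. *Cfb*, complement factor B of the alternative pathway, had 0.46, 0.18 and −0.23 in wild type and −0.62, −1.02 and −0.73 in KTR (log2 fold change −0.93 ± 0.19, adjusted p = 0.0445, 0.176 without the replicate block), without overlap. It was at −1.04, −0.95 and −1.77 in wild type at 0 h and not above background in pTV. *C1s* had −0.68 (adjusted p = 0.0406) and *C3*, the brightest, −0.42 (adjusted p = 0.12). *Saa3*, *Saa1* and *Hp* had −0.74, −0.84 and −0.79 (adjusted p = 0.103, 0.102 and 0.0992), and *Ptx3* −0.22 (adjusted p = 0.35).

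**Figure D3:**
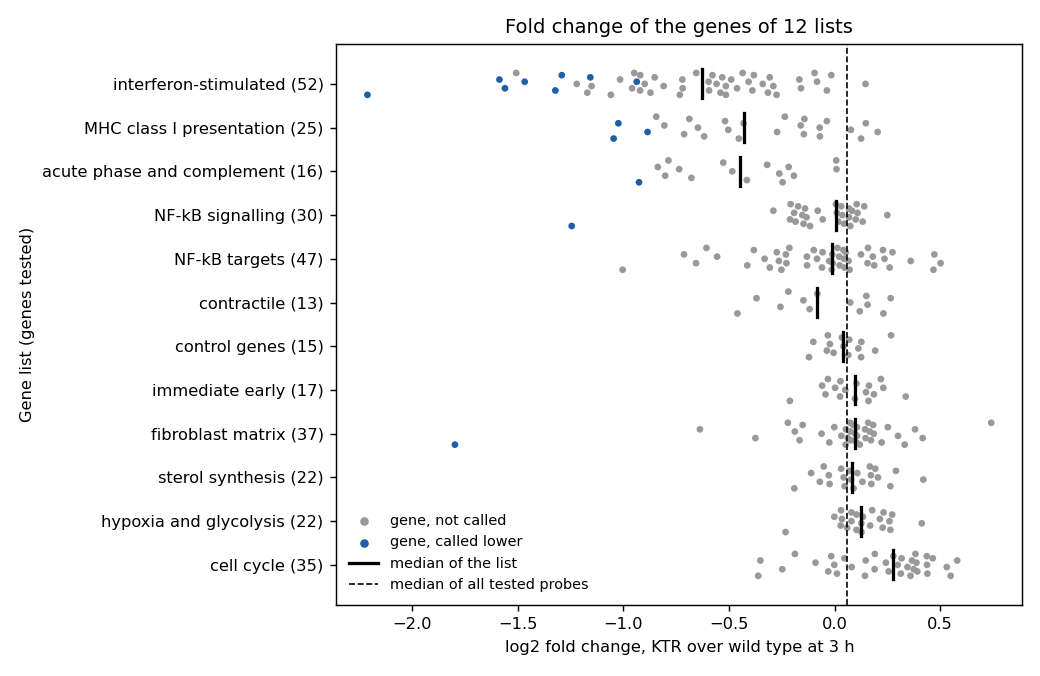
Log2 fold change of KTR over wild type at 3 h (horizontal axis) of the tested genes of 12 lists (vertical axis, with the number of genes), 1 point per gene, a bar at the median of the list and a dashed line at the median of all tested probes. The interferon-stimulated list has a median of −0.63 and 8 called genes, and the NF-κB targets a median of −0.01 and none.

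*LOC668139* and *ENSMUST00000094405* were also among the lowest, and the reference table gave neither a current symbol. *LOC668139* had −1.11, −0.59 and −1.19 in wild type, −3.11, −2.43 and −3.39 in KTR and −2.41 and −2.93 in K314/315R (log2 fold change −2.02 ± 0.30, adjusted p = 0.0171, 0.0865 without the replicate block). *ENSMUST00000094405* had −1.59, −1.26 and −1.98 against −2.76, −2.78 and −3.07 (−1.26 ± 0.09, adjusted p = 0.000684). The groups did not overlap for either, and no pTV array was above background.

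Among secreted factors, *Nts*, the gene of the neuropeptide neurotensin, had −0.77, −0.83 and −0.75 in wild type, −2.76, −3.47 and −2.13 in KTR and −1.29, −1.22 and −1.27 in wild type at 0 h, and was not above background in pTV. Its log2 fold change was −2.002 ± 0.26 (SE, adjusted p = 0.0103). In K314/315R it had −2.04 and −1.08. *1100001G20Rik* (*Wfdc21*) and *Expi* (*Wfdc18*) encode small secreted proteins with a WAP domain. The former had −1.48, −1.99 and −1.34 against −2.86, −3.50 and −2.56 (−1.37, adjusted p = 0.0224), and *Expi* 1.09, 0.57 and 1.52 against 0.09, −0.58 and −0.09 (−1.25, adjusted p = 0.0144). In K314/315R, *Expi* had 1.23 and 3.00, so it was not low there.

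Genes of the extracellular matrix went both ways. *Efemp1*, which encodes fibulin-3, had −0.73, −0.91 and −1.11 in wild type, −2.57, −2.75 and −2.83 in KTR and −0.85 and −1.08 in K314/315R (log2 fold change KTR over wild type −1.80 ± 0.22, adjusted p = 0.00674). *Lama2*, the laminin α2 chain of basement membranes, had −1.23, −1.34 and −1.07 against −2.59, −2.31 and −2.56 (−1.28 ± 0.10, adjusted p = 0.000703). A second probe had −1.33 (adjusted p = 0.0168), but was above background on only 2 KTR arrays and passed the filter only through wild type. The pTV cells, at −0.65, −0.76 and −0.67, had more *Lama2* signal than wild type. Over the list of 37 matrix genes the median was 0.10, with 1 called lower and 0 called higher. *Col6a3* and *Col4a1* were higher below the fold limit (0.74 and 0.38, adjusted p = 0.000936 and 0.0364), and *Col1a2*, the brightest, had 0.06 (adjusted p = 0.726).

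*Asb4*, which encodes a substrate adaptor of an E3 ubiquitin ligase, had its lowest values in KTR. It had −0.73, −0.89 and −0.49 in wild type, −2.99, −2.80 and −2.64 in KTR, −1.42 and −1.17 in K314/315R, −0.73, −1.05 and −0.74 in pTV and −0.68, −0.55 and −0.22 at 0 h. KTR had 0.232 times the wild type level (log2 fold change −2.11 ± 0.10, adjusted p = 0.00011). Over the 70 lower probes, the pTV mean was below the KTR mean for 43, between KTR and wild type for 15 and above wild type for 12. This tally includes probes above background on no KTR and no pTV array, such as *Xist*, *Plac8* and *Sp100*. For such probes the order of the KTR and pTV means compares background signals only. *Epha7*, a receptor tyrosine kinase for ephrins, had −1.80, −1.69 and −1.88 against −2.62, −2.76 and −3.33 (−1.11, adjusted p = 0.0029), while the related *Epha4* (−0.96, adjusted p = 0.0698) missed the limit and the semaphorin receptor *Plxna2* had −0.43 (adjusted p = 0.00765).

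Of the 70 lower probes, 21 were well above background on no KTR array, so that only a bound can be given. It compares the wild type mean with the higher of the KTR signal and the lowest signal measurable on each array. The largest bound was that of *Xist*, the RNA that coats the inactive X chromosome in female cells. It had −2.14, −2.25 and −2.54 in wild type and was not above background in KTR or pTV, at least 3.85-fold higher in wild type than in KTR (adjusted p = 8.54e-05). It was also measured in wild type at 0 h (−2.17, −2.02 and −2.48) and in K314/315R (−3.13 and −3.62). A second probe gave at least 1.46-fold (adjusted p = 0.0168).

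*Kctd12b*, *B830045N13Rik* (*Brinp3*), *9530066K23Rik* (*Nipal4*) and *LOC435366* were at least 2.24-fold, 2.07-fold, 1.90-fold and 1.77-fold higher in wild type than in KTR (adjusted p = 0.00254, 0.0122, 0.0168 and 0.0331). Of these, *9530066K23Rik* was above background on all 3 pTV arrays. Only the bounds of *Xist*, *Kctd12b*, *B830045N13Rik* and *9530066K23Rik* exceeded 1.8-fold. The other lower probes with no KTR array above background passed the fold limit only through KTR signals near background. Examples are *Plac8* (at least 1.05-fold) and *Gca* (at least 1.01-fold), and *Hecw1* and *Lin28b* had no bound.

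Of the probes higher in KTR, 28 of 31 had a mean level below 0. The 31 probes were above background on all 6 arrays in 29 cases, and the pTV mean was above KTR for 6, between wild type and KTR for 15 and below wild type for 10. *Gm784* (*Fndc3c1*), which encodes a fibronectin type III domain protein, had −3.94, −4.46 and −4.80 in wild type and −1.81, −1.50 and −2.03 in KTR, 6.16-fold higher (log2 fold change 2.62 ± 0.17, adjusted p = 0.000249). The pTV arrays, at −3.09, −2.96 and −3.09, lay between. A second probe was not above background in wild type and was at least 2.50-fold higher in KTR (adjusted p = 0.00226). *2810003K23Rik* had −3.07, −3.13 and −3.16 against −1.44, −1.52 and −1.41 (1.66 ± 0.28, adjusted p = 0.0249).

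*Apob*, the main protein of low density lipoprotein, had −3.23, −3.84 and −3.72 in wild type and −2.34, −0.87 and −2.37 in KTR. The second KTR array was high above the other ones of its group (1.74 ± 0.35, adjusted p = 0.0471). *Mmp28*, a matrix metalloproteinase, had −4.15, −4.16 and −3.80 against −3.15, −2.11 and −2.41 (1.48 ± 0.22, adjusted p = 0.0168). *Col8a2*, a short-chain collagen, had −2.89, −3.51 and −3.19 against −1.80, −2.27 and −2.06 (1.15 ± 0.17, adjusted p = 0.0172). The groups did not overlap in these genes.

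*Lrrc15*, a leucine-rich repeat membrane protein of fibroblasts, had −0.97, −1.16 and −1.14 in wild type, −0.15, −0.05 and 0.21 in KTR and −0.58, −0.85 and −0.39 in pTV (log2 fold change 1.09 ± 0.12, adjusted p = 0.00391). *Pthr1* (*Pth1r*), the receptor of parathyroid hormone, rose from −3.29, −3.78 and −3.46 to −2.36, −2.997 and −1.94 (1.08, adjusted p = 0.00984). *Padi2*, a peptidylarginine deiminase, had 1.102 (adjusted p = 0.0252), and *C130038G02Rik* had 1.09 (adjusted p = 0.000936). *4930517K11Rik* (*Rpl39l*), a ribosomal protein paralog, was called by a dim probe (1.23, adjusted p = 0.0148) and a bright one. The bright probe had 2.01, 1.64 and 1.23 in wild type, 2.85, 2.67 and 2.44 in KTR and 2.02, 1.70 and 1.39 in pTV (1.03, adjusted p = 0.000936). All KTR arrays of these genes lay above all wild type arrays. The higher calls depend on the background correction. Normexp on all spots left 0 of the named higher and 0 of the named lower genes called. With normexp, leaving out spots whose local background was brighter than the spot (an alternative chosen after seeing the data), 7 probes were higher and 64 lower, and 5 of the 10 named higher genes and all 15 named lower genes kept their call.

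**Figure D4:**
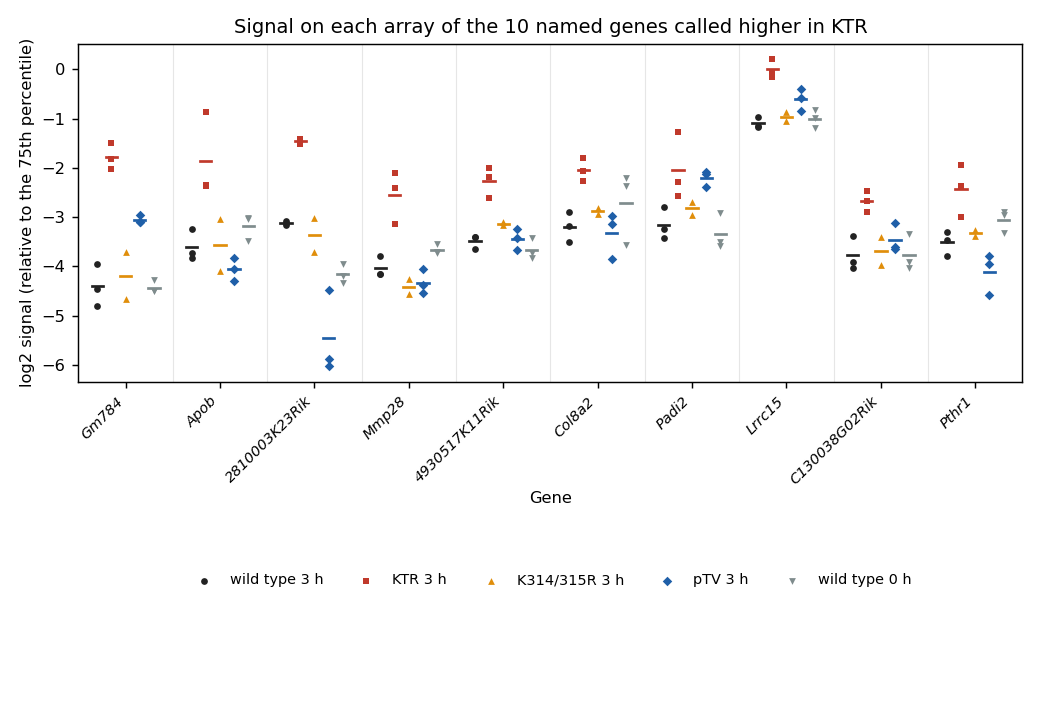
Log2 signal relative to the 75th percentile (vertical axis) of 10 genes called higher in KTR (horizontal axis), 1 point per array and a line at each group mean, for the 5 groups. In every gene the 3 KTR arrays lie above the 3 wild type arrays at 3 h, and among the KTR arrays of these probes only one of *Lrrc15* lies above 0, the dimmer probe of *4930517K11Rik* being plotted.

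None of 35 tested cell cycle genes was called. Of 27 proliferation genes, 3 (11.1%) had a lower mean in KTR, beside 35% of all tested genes, the median was 0.31, and 8 passed an adjusted p under 0.05 below the fold limit, beside 1.1% of all tested probes in this direction. *Pcna*, the sliding clamp of DNA replication, had 4.11, 4.15 and 3.92 in wild type and 4.57, 4.51 and 4.27 in KTR (0.39, adjusted p = 0.0201). *Ccnb2* and *Ccnb1*, mitotic cyclins, had 0.44 and 0.37 (adjusted p = 0.0232 and 0.0345), *Tyms*, thymidylate synthase, 0.32 (adjusted p = 0.0293), and *Mcm6*, the brightest, 0.15 (adjusted p = 0.341). Of 8 cell cycle inhibitor genes, 5 had a lower mean and the median was −0.02, and *Cdkn1c*, the inhibitor p57, had 0.58 (adjusted p = 0.0307). The pTV arrays of *Pcna*, at 4.67, 4.54 and 4.26, were near those of KTR.

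The enzymes that acetylate, deacetylate or methylate p65 gave 0 calls by limma among 13 tested genes, 0 of them with an adjusted p under 0.05 at any fold. *Ep300* and *Crebbp*, the genes of p300 and CBP, had log2 fold changes of −0.02 and 0.03 (adjusted p = 0.935 and 0.839). Lists for immediate early (17 tested), contractile (13), sterol synthesis (22) and glycolysis genes (22) and 15 control genes held 0 called genes, with medians of 0.10, −0.08, 0.08, 0.13 and 0.04. The only one of them with an adjusted p under 0.05 was *Myl9*, a myosin light chain (−0.46, adjusted p = 0.038).

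Probes were also chosen on the wild type 0 h and pTV arrays alone. Of 771 probes more than 2-fold higher in wild type at 0 h than in pTV (adjusted p under 0.05), 736 were tested, and 39 of them (5.3%) were called lower and 2 higher in KTR. Without overlap, 222 (30.2%) were lower, and 77% had a lower mean. The median was −0.23 and the quartiles were −0.50 and −0.03. Of 425 probes chosen in the opposite direction, 341 were tested, 0 were called lower and 7 higher, and the median was 0.13. Among the other 20391 probes, 31 were lower and 22 higher, with a median of 0.06. Of these others, 4.3% were lower without overlap and 35.1% had a lower mean. The 39 lower calls became 16 without the replicate block, 19, 16 and 24 without wild type replicate 1, 2 and 3 and 21 without KTR replicate 2. The 4 groups share slides and 1 estimate of the spread, and the wild type cells of 0 h and 3 h were the same pool, so that p65 and what is particular to this pool cannot be told apart here.

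**Figure D5:**
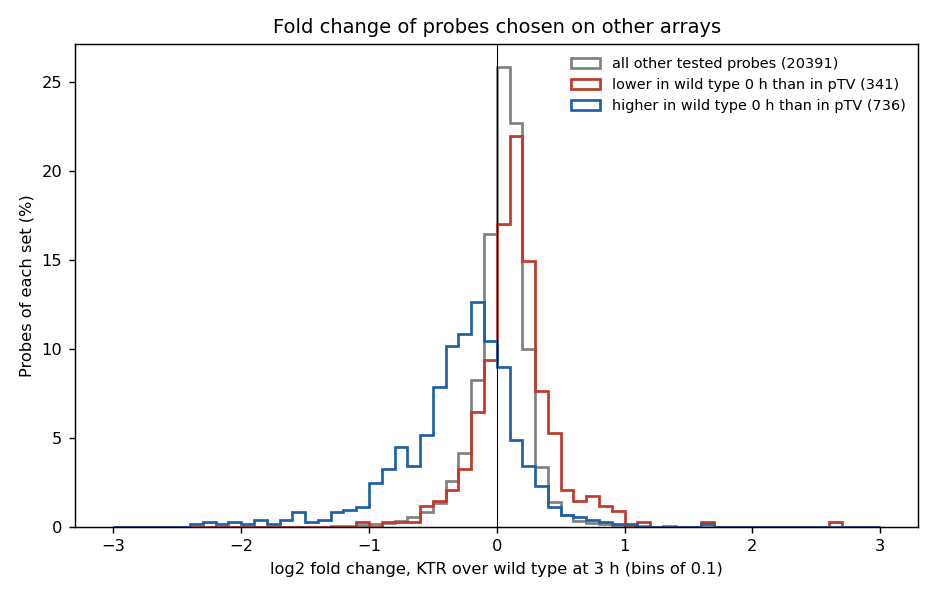
Share of probes (%, vertical axis) by log2 fold change of KTR over wild type at 3 h (horizontal axis, bins of 0.1) for 736 probes higher and 341 lower in wild type at 0 h than in pTV and for all 20391 others. The first set has a median of −0.23, the second of 0.13 and the others of 0.06.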

How the data were processed

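The data were 14 Agilent 1-colour Whole Mouse Genome arrays of RNA from 5 groups. The deposited scanner files held the intensity of each spot as processed by the authors with Agilent Feature Extraction 9.1 (background-subtracted, not scaled between arrays). Groups came from the sample titles. Replicates were isolated on different days per the methods of the study, so p-values measure the spread between such isolates. The number of arrays limits the precision.

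Outlier and control spots were left out, spots of a probe averaged, and log2 of the intensity was taken minus the 75th percentile of each array. Probes well above background on every array of wild type or of KTR, with at least 2 values in each group, were tested with limma 3.58.1 (R 4.3.3) on 12 arrays, with slide as a block and Benjamini-Hochberg adjustment over all probes. The labels number the replicates of each group 1 to 3, and same-numbered arrays lay on 1 slide. Their deviations from the group means correlated (r = 0.33 to 0.60 between KTR and wild type, against −0.36 to −0.03 for other pairs), so the number was used as a pairing. Both K314/315R arrays lay on slide 4 and entered no test.

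For gene lists, the brightest probe of each gene was used. Lists and group members were chosen with earlier results of these data known, and several lists overlap in their biology with genes named before. Genes were named if they were among the 15 lowest or 10 highest called genes measured on all 6 arrays without overlap, among the up to 5 calls a direction with the largest bound, named by the study, or in a list among the 4 smallest p or the brightest. Gene names are those of the array, and of its probes 22951 had an accession in the reference table (GRCm38.p6), 5141 of them with another current symbol, given in parentheses. Other normalizations, background corrections, filters, blocks and left-out arrays were tried. The authors' own value table was used as an alternative only. No column of other series was present (0). Promoter sequences and figures were made with Python 3.11.15 and matplotlib 3.10.9. A gene that the naming rule selects is not reported here.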

Additional observations from a re-analysis of the deposited data

How the results depend on the processing

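The counts are given as lower and higher probes in KTR, then lower probes of the set higher in wild type at 0 h than in pTV, called interferon-stimulated genes and called MHC class I genes. As reported they were 70, 31, 39, 8 and 3, with 30.7% of the calls higher. Without the replicate block they were 32, 8, 16, 0 and 1 on 12 arrays (20% higher) and 31, 7, 14, 0 and 0 on 14 arrays (18.4%); 39 of the 40 calls without the block on 12 arrays were among the 101 with it. With the replicate block on the 6 arrays alone they were 1, 0, 1, 0 and 0. Normexp on all spots gave 0, 0, 0, 0 and 0, and without spots of bright local background, chosen after seeing the data, 64, 7, 40, 14 and 3 (9.86%). With all probes tested they were 159, 1153, 79, 14 and 3 (87.9% higher), and with only probes above background on all 6 arrays 37, 30, 28, 9 and 2 (44.8%). Array weights gave 131, 39, 73, 16 and 4, unadjusted p 163, 53, 74, 19 and 3, and no fold limit 229, 237, 91, 9 and 9. Leaving out 1 array gave 35 to 104, 12 to 52, 16 to 44, 0 to 4 and 2 to 3, and leaving out 1 slide 10 to 59, 1 to 13, 5 to 38, 0 to 8 and 0 to 2. Leaving out slide 2 gave 10 lower and 1 higher, the fewest. The other settings left these counts within 1.5 times, and 12 to 15 of the 15 lower and 9 or 10 of the 10 higher genes named for their fold kept their call. Directions turned only for small differences, apart from normexp on all spots, and the cause was not tested. Log2 fold changes of the opposite sign were, for *Cxcl10*, 0.0132 without the replicate block (0.0132 on 14 arrays), 0.166 with the 6 arrays alone, 0.11 with normexp and 0.0804 with its later version, which also turned *Mmp10* (0.0196) and *Ep300* (0.0444). Quantile normalization turned *Ep300* (6e-04), the authors' table *Crebbp* (−0.0159), kept outliers *Crebbp* (−0.0147) and *Nfkb1* (−0.0207), and array weights *Mmp13* (−0.011). Normexp on all spots turned the second *Gm784* probe (−0.0346), *Mmp13* (−0.015), *Relb* (0.1227), *Nfkbia* (0.1302), *Vcam1* (0.2093), *Sod2* (0.1173), *Ptx3* (0.1351), *Irf1* (0.2715), *Ifitm3* (0.1906), *B2m* (0.1906) and *Psmb10* (0.233). With arrays or slides left out, *Mmp13* ran from −0.1015 to 0.4751, *Mmp10* from −0.2145 to 0.0343, *Ccl2* from −0.0231 to 0.1256, *Irf1* from −0.133 to 0.0531, *Ifitm3* from −0.4769 to 0.0049, *B2m* from −0.2202 to 0.0167, *Col1a2* from −0.0099 to 0.152 and *Ep300* from −0.0679 to 0.064. Signal over background limits the 21 lower calls with no KTR array above background to bounds.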
